A study of Mus musculus with 4 samples.

Results

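Melanosome and pigment synthesis genes were followed in back skin of mice that carry the gene of IKKbeta under regulatory elements of keratin K5. The set held Tyr, Tyrp1, Dct, Pmel, Mlana, Slc45a2, Oca2, Slc24a5, Gpr143 and Gpnmb, and its members were the probe sets for which the array platform's annotation gives 1 of these symbols and no other. They came to 15 of 45101 probe sets, for 9 of the 10 genes. Slc24a5, a melanosomal cation exchanger, had no such probe set and was not analysed here. Of the 9 genes, 5 had 1 probe set each, and the others had up to 3.

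The 4 Affymetrix arrays comprised 2 hybridized with RNA of wild type back skin and 2 with RNA of K5-IKKbeta transgenic back skin. All mice were 32-day-old males of strain C57BL6 X DBA2, and 3 mice sharing a genotype were pooled for each array; p-values therefore measure the spread between pools, which may not show that between single mice. IKKbeta is the kinase that activates NF-kB, and keratin K5 belongs to basal cells of the epidermis and the outer layer of the follicle, so the transgene is driven in keratinocytes; whether melanocytes also carried its product was not analysed here. The number of transgenic lines and the generation of the cross were not known from the labels. DBA2 mice are known for coat colour alleles of Tyrp1 and Myo5a, and DBA/2J mice also for an allele of Gpnmb; the labels name no substrain, and the alleles present in each pool were not analysed here. Probe set 1454184_a_at for Ikbkb, the gene of the transgene, measured 6.50 and 6.54 in wild type pools and 8.77 and 8.74 in K5-IKKbeta pools on the log2 scale, a log2 fold change of 2.24 and the largest of its 5 probe sets. The brightest, 1426207_at, measured 9.68 and 9.89 against 10.38 and 10.20 (log2 fold change 0.50), 1426333_a_at gave 0.47, and 1432275_at gave -0.15 with groups that overlapped. The dimmest, 1445141_at, gave 0.14 and lay below the background floor used here on all 4 arrays. The skin markers Krt5, Krt14 and Col1a1 each outranked at least 99% of the probe sets, ties included, on all arrays.

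Melanocytes make melanin inside melanosomes and hand these to keratinocytes. In hairy mouse skin they sit mainly in the bulb of the hair follicle, where pigment is made while the hair shaft grows. Tyrosinase (Tyr) starts the synthesis, and its relatives Tyrp1 and Dct act on later intermediates. Pmel forms the fibrils on which melanin is laid down, transport proteins of the melanosome membrane set its ion content, and the factor MITF activates many of these genes by binding E-boxes, a long form of which is called the M-box.

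The M-box is read from promoter sequence, so the promoters of the 3 synthesis enzymes are shown first. The following are the 250 bases before the annotated start in RefSeq for the mouse build GRCm38.p6, 5′ to 3′ on the strand of the gene, with capitals marking the M-box core CATGTG or its reverse complement CACATG. They lie at chr7:87493513-87493762 on the minus strand for Tyr, chr4:80833963-80834212 on the plus strand for Tyrp1 and chr14:118052247-118052496 on the minus strand for Dct.
Tyr: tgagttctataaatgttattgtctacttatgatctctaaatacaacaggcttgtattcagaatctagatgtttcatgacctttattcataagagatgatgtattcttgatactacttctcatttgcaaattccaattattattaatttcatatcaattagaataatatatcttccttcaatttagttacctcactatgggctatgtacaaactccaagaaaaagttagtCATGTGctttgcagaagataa
Tyrp1: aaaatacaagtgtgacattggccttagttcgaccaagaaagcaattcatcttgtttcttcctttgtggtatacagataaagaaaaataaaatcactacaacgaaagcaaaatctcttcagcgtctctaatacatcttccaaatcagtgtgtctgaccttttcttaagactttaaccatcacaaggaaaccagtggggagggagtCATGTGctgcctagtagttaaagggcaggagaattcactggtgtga
Dct: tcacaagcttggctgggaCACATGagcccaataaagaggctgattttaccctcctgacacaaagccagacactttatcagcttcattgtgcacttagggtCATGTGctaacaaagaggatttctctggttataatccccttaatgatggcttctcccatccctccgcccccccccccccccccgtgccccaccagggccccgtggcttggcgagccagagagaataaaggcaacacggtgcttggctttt

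The promoter table held windows for 6 of the 10 genes, each of 250 bases before and 50 after the start. The core CATGTG, searched on both strands, was found in 5 of these 6 windows and in 14.2% of all 32851 windows in the table. The longest run around the core that Tyr, Tyrp1 and Dct shared was GTCATGTGCT, of 10 letters, which 0.186% of all windows held on either strand. Tyr and Tyrp1 shared AGTCATGTGCT, of 11 letters, the M-box, which contains the others and which 0.0213% of all windows held (7 windows). These longer runs were taken from the members themselves, so their presence there is given by the choice. The related E-box CACGTG was found in 0 of the 6 and in 7.15% of all windows. With the start counted as 0, the first base of the core was at -21 in Tyr, at -46 in Tyrp1 and at -150 in Dct. Dct held another copy on the opposite strand at -232. Oca2 and Slc24a5 had only the 6-letter core, on the opposite strand, and are shown for comparison as 30 bases at chr7:56239561-56239590 and chr2:125068102-125068131, both on the plus strand.
Oca2: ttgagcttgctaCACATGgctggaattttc
Slc24a5: aaggagactgctCACATGattcagcataag

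The window of Gpnmb had no match to these letters. A match describes the sequence and does not show that a factor was bound.

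**Figure D1:**
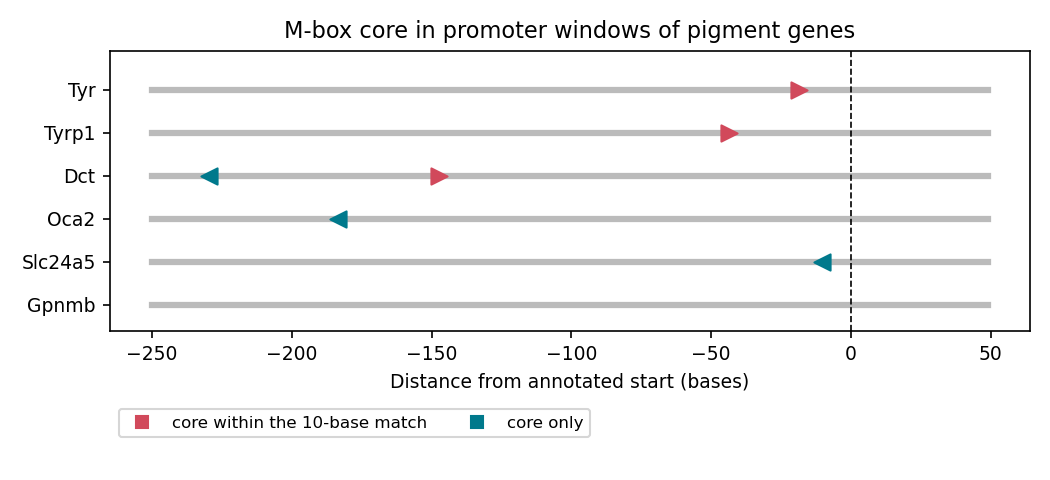
Promoter windows of 6 pigment genes, drawn against the distance in bases from the annotated start (dashed line at 0); triangles mark the M-box core and point along the strand that carries it, red where the core lies in the 10-letter run and blue where it does not. Tyr, Tyrp1 and Dct have red marks, Oca2 and Slc24a5 have only blue ones, and Gpnmb has none.

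Pigment genes were lower in K5-IKKbeta skin. All 9 measured genes fell, by 1.49-fold (Dct) to 4.57-fold (Gpnmb), and 6 of the 9 fell at least 2-fold. In the fit over 13074 genes, which took the brightest probe set of each, 10.6% of genes were called lower at a limma adjusted p under 0.05 and 3.37% were called lower by at least 2-fold. The median log2 fold change (K5-IKKbeta minus wild type) was -1.61 over the 9 genes and 0.09 over all tested genes. The 9 genes lay at the low end of all tested genes, with between 1.20% (Gpnmb) and 6.51% (Dct) of genes having a lower log2 fold change. All 9 passed the filter on dim probe sets, Gpr143 with a K5-IKKbeta mean (6.16) below the filter value of 6.33. The order among members was not fixed: Oca2 (-1.76) lay below Gpnmb (-1.73) without wild type pool 2, and Gpr143 (-1.86) below Gpnmb (-1.66) when the probe sets of each gene were averaged. These are bulk skin samples, so fewer melanocytes and less RNA in each melanocyte cannot be told apart.

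Of the enzymes, Tyr fell most by the brightest probe set of each. Its brightest probe set measured 10.74 and 10.91 in the wild type pools and 9.14 and 9.30 in the K5-IKKbeta pools (log2 level). The wild type pools were both high and the groups did not overlap. The log2 fold change was -1.61 (SE 0.11, 95% interval -1.89 to -1.33, limma adjusted p = 0.000284), a 3.05-fold fall. Tyrp1, which oxidizes a later intermediate of black melanin, measured 12.17 and 12.33 against 11.23 and 11.36. Its pools kept within 0.2 of each other, and it fell 1.94-fold (log2 fold change -0.96, SE 0.11, interval -1.22 to -0.69, limma adjusted p = 0.00147).

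Dct, the dopachrome tautomerase between these steps, had the smallest fold change of the 9 genes with all arrays; without wild type pool 1 or K5-IKKbeta pool 2 that of Slc45a2 was smaller (-0.64 against -0.65 and -0.58 against -0.64). Its levels were 12.44 and 12.58 in wild type and 11.87 and 11.99 in K5-IKKbeta skin. The group means lay at percentiles 98.9 (wild type) and 98.1 (K5-IKKbeta) of all probe sets, and the highest values of the arrays were 14.50 to 14.67. RMA values can be compressed at high signal, and whether that affected Dct was not tested. The groups did not overlap. The fall was 1.49-fold (log2 fold change -0.58, SE 0.11, interval -0.84 to -0.32, limma adjusted p = 0.00866), and its call was lost without wild type pool 2 (log2 fold change -0.51, limma adjusted p = 0.0749). By the brightest probe set of each, the intervals of Tyr and Dct did not overlap, and neither did those of Tyr and Tyrp1. In a fit over all probe sets, the dimmer Tyr probe sets gave -0.95 (interval -1.37 to -0.53) and -1.25 (interval -1.94 to -0.57). Both of these intervals overlapped those of Tyrp1 and Dct. The difference between genes was not itself tested.

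The structural proteins of the melanosome fell as well. Pmel measured 11.80 and 11.38 in wild type pools and 10.35 and 10.30 in K5-IKKbeta pools. Here wild type pool 1 was the higher of its pair, against the order in most other members. Pmel fell 2.41-fold (log2 fold change -1.27, SE 0.15, limma adjusted p = 0.00176). Mlana, a partner of Pmel in early melanosomes, measured 11.03 and 10.98 against 9.17 and 9.48. Its wild type pools differed by less than 0.1, and it fell 3.21-fold (log2 fold change -1.68, SE 0.13, limma adjusted p = 0.000384).

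The transport proteins of the melanosome membrane differed in the size of their falls. Oca2, needed for chloride flow and melanosome pH, measured 9.14 and 9.17 in wild type and 7.28 and 7.48 in K5-IKKbeta skin. The wild type pools were close together, and the fall was 3.42-fold (log2 fold change -1.78, SE 0.11, interval -2.04 to -1.51, limma adjusted p = 0.000163). Slc45a2, a sugar and proton transporter of the melanosome, measured 9.27 and 9.28 against 8.69 and 8.58. Both groups were tight, and the fall was 1.56-fold (log2 fold change -0.64, SE 0.10, interval -0.87 to -0.40, limma adjusted p = 0.00425). The intervals of these transporters did not overlap.

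Gpr143 and Gpnmb are membrane proteins of melanosomes with wider spread between pools. Gpr143, a receptor that controls melanosome size, measured 7.86 and 8.19 in wild type pools and 5.88 and 6.44 in K5-IKKbeta pools. K5-IKKbeta pool 1 was the lowest, and the fall was 3.64-fold (log2 fold change -1.86, SE 0.21, limma adjusted p = 0.00136). Gpnmb, a glycoprotein related to Pmel that macrophages also make, measured 11.04 and 11.96 in wild type and 9.33 and 9.29 in K5-IKKbeta skin. The wild type pools lay 0.92 apart, the widest gap between wild type pools among the 15 probe sets. Its log2 fold change of -2.19 (SE 0.28, interval -2.88 to -1.50, limma adjusted p = 0.00233) became -2.65 without wild type pool 1 and -1.73 without wild type pool 2, and passed the threshold in both cases. Whether the pools differed in the Gpnmb allele of DBA/2J mice was not tested.

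**Figure D2:**
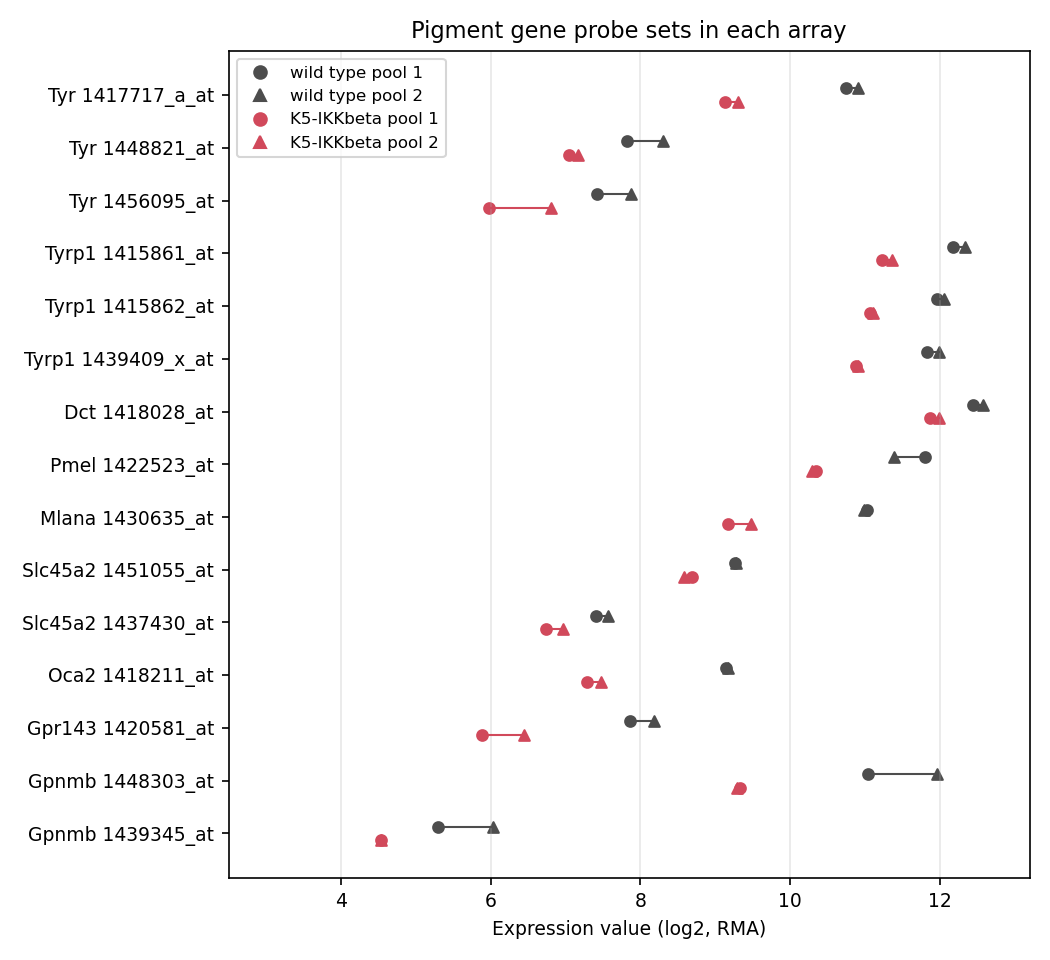
Log2 RMA expression value of each of the 15 probe sets (rows) in each array; grey marks are wild type pools, red marks K5-IKKbeta pools, circles pool 1 and triangles pool 2, with a line joining the pools of a group. In all 15 rows both grey marks lie to the right of both red marks.

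Probe sets of the same gene fell together. In a separate fit over all 45101 probe sets, 15 of 15 member probe sets were lower at a limma adjusted p under 0.05, against 5.88% of all probe sets. The pools of the groups did not overlap in 9 of 9 genes, against 24.3% of all tested genes that were lower without overlap, nor in 15 of 15 probe sets, against 25.8% of all probe sets that were lower in K5-IKKbeta skin without overlap. The 3 probe sets of Tyrp1 gave log2 fold changes of -0.96, -0.92 and -1.01, and those of Slc45a2 gave -0.64 and -0.64. For Tyr the brightest gave -1.61, while 1448821_at gave -0.95 and 1456095_at gave -1.25. The dimmer probe set of Gpnmb, 1439345_at, measured 5.29 and 6.03 in wild type and 4.53 in both K5-IKKbeta pools, below the 25th percentile of these arrays that served as a floor for background. It is therefore given as at least 1.27-fold lower (limma adjusted p = 0.0201 over all probe sets). Without wild type pool 2, 9 of the 15 remained past the threshold; those that did not were the Dct probe set, both of Slc45a2, 2 of Tyr and the dim one of Gpnmb.

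Pools of a genotype also differed in common. Wild type pool 2 lay above pool 1 in 13 of 15 probe sets, which come from 9 genes, with a median difference of 0.16. Over all probe sets pool 2 was the higher in 52.3%, with a median difference of 0.01. Over all tested genes, which leave out dim probe sets, it was the higher in 62.7%, with a median difference of 0.05. Among K5-IKKbeta arrays pool 2 exceeded pool 1 in 11 of 15, with a median difference of 0.13. This compares with 45.7% of all probe sets (median -0.02) and 51.2% of all tested genes (median 0.01). The differences between genotypes were larger than these in the median.

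Regulators of melanocytes moved in part. Of 10 tested, 4 fell and 1 rose, against 10.6% lower and 23.4% higher among all tested genes, with a median log2 fold change of -0.36. Mitf, the factor named above, measured 10.78 and 10.91 in wild type and 10.02 and 9.62 in K5-IKKbeta skin and fell 2.04-fold (log2 fold change -1.03, SE 0.15, limma adjusted p = 0.00388). Its other probe set, 1422025_at, gave -1.55. Mc1r, the melanocortin receptor that switches melanocytes to black pigment, fell 2.01-fold (limma adjusted p = 0.00196). Ednrb, the endothelin receptor of melanocytes and their precursors, fell 2.19-fold (adjusted p = 0.00871 from limma). Lef1, a Wnt effector of melanocytes and of the hair matrix, fell 2.36-fold (adjusted p = 0.0113 from limma). It is also on the list of hair matrix genes below and was counted in both.

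The calls of Ednrb and Lef1 were lost without wild type pool 2 (limma adjusted p = 0.0534 and 0.0699). Sox10, the neural crest factor upstream of Mitf, measured 8.48 and 8.42 against 8.47 and 8.44. Its log2 fold change was 0.00 with a 95% interval of -0.22 to 0.23. Sox10 is also on the list of Schwann and nerve genes below and was counted in both. Which cells made its RNA was not analysed here. Pax3, another upstream factor, gave 0.17 (interval -0.12 to 0.47), and Kit, the receptor for stem cell factor, gave -0.42 (interval -0.81 to -0.04, limma adjusted p = 0.0888). The member that rose was Irf4, which lymphoid and dendritic cells also make, at 0.34 (limma adjusted p = 0.0345); this call was lost under 10 of 13 alternative settings, and its other probe set gave -0.07.

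Ligands of melanocytes, made by surrounding cells, were lower in 2 of 6 tested, where 10.6% of all tested genes were lower. Edn1, an endothelin, fell 1.83-fold (limma adjusted p = 0.00542). Kitl, the stem cell factor that binds Kit, fell 1.59-fold (limma adjusted p = 0.0233), which was lost without wild type pool 2 (adjusted p = 0.136). Edn3, Pomc, Hgf and Corin did not pass the threshold, and Asip and Fgf2 were not tested. A dimmer probe set of Edn3, 1421136_at, lay below the floor in both K5-IKKbeta pools and was at least 1.17-fold lower (limma adjusted p = 0.0158 over all probe sets). The remaining probe sets of Edn3, 1441923_s_at and 1441924_x_at, gave 0.05 and -0.03.

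Genes of melanosome biogenesis and transport, many of them used by lysosomes and secretory vesicles of other cells, mostly did not pass the threshold. Of 27 tested, 5 fell (18.5%), 3 rose (11.1%) and 19 did neither, against 10.6% lower and 23.4% higher among all tested genes, with a median log2 fold change of -0.08. Sytl2, a Rab27 effector that tethers secretory vesicles, fell 4.59-fold (log2 fold change -2.20, SE 0.15, limma adjusted p = 0.000274). Mreg, which acts on melanosome distribution, and Atp7a, the copper pump that supplies tyrosinase, fell 1.84-fold and 1.80-fold. Slc7a11, the cystine transporter that supplies red and yellow pigment, was not among the 27, since the mean of its brighter probe set over the arrays lay under the filter value. That probe set, 1443536_at, measured 6.83 and 6.98 in wild type and 3.90 and 4.10 in K5-IKKbeta skin, both below the floor, and is given as at least 3.01-fold lower (limma adjusted p = 7.07e-05 over all probe sets); it was chosen after its values were seen. Rab32, a small GTPase of melanosomes and other lysosome-related organelles, rose 2.93-fold (log2 fold change 1.55, SE 0.11).

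Rab27a and Mlph, which tie melanosomes to actin motors, rose 1.54-fold and 1.38-fold; both calls were lost without wild type pool 1 (limma adjusted p = 0.0753 and 0.124), and that of Mlph also without wild type pool 2 (adjusted p = 0.0549). For Rab27a, 1 of its 4 probe sets, 1454438_at, gave -0.41. The 13 tested subunits of the BLOC and AP-3 complexes, which sort cargo to melanosomes and related organelles, had log2 fold changes from -0.44 (Bloc1s3) to 0.22 (Ap3b1), with 5 below 0 and 8 above. Of these only Bloc1s3 passed the threshold (limma adjusted p = 0.0331), and its call was lost without wild type pool 1 or 2 or K5-IKKbeta pool 1 (limma adjusted p = 0.13, 0.162 and 0.0839).

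**Figure D3:**
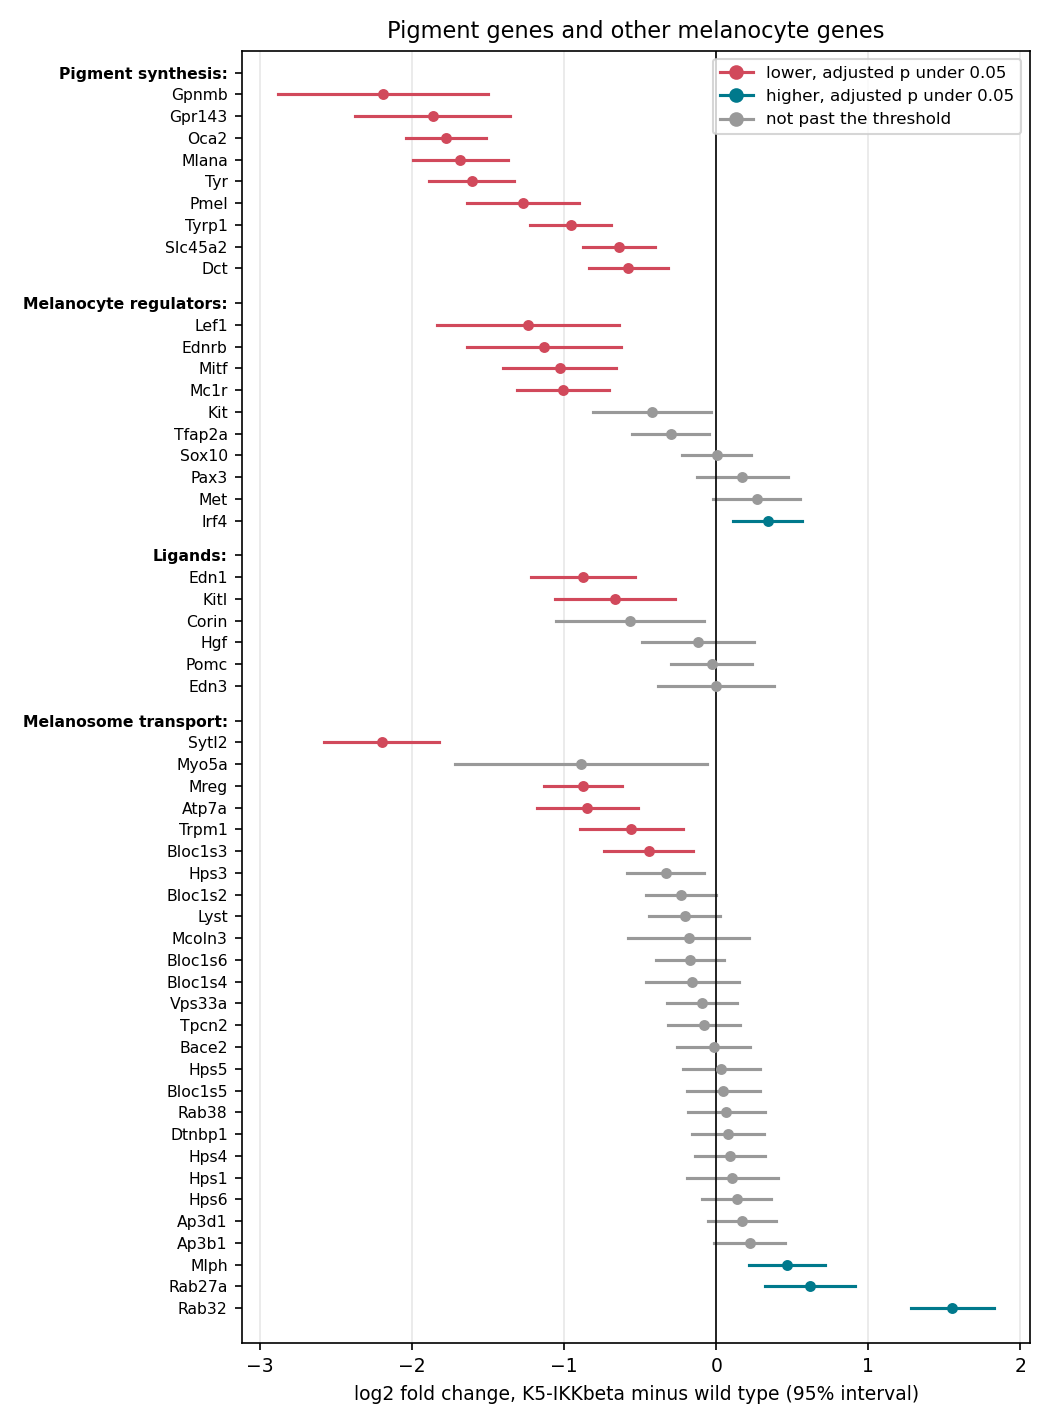
Log2 fold change (K5-IKKbeta minus wild type) with its 95% interval for the pigment synthesis genes and 3 lists of other melanocyte genes; red is lower and blue higher at a limma adjusted p under 0.05, and grey did not pass. All 9 pigment synthesis genes are red, while Sox10 lies at 0.00 and Rab32 at 1.55.

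Genes of other skin compartments moved in the same arrays. Each of the 18 tested hair shaft genes was called lower, and their median was -5.99 (log2 fold change). Their mean level per array was 13.04 in both wild type pools and 7.16 and 7.47 in the K5-IKKbeta pools. The hair keratins Krt86 and Krt34 had log2 fold changes of -7.03 and -6.83, and the keratin-associated genes Krtap15 and Krtap6-2 -8.94 (with 1 of the K5-IKKbeta pools below the floor) and at least 219-fold lower; Krtap values are uncertain, since near-identical copies can share probes. Of 10 transcription factors and signals of the hair matrix 8 fell (80.0%, against 10.6% of all tested genes; median -1.35), led by Foxn1 at -2.85, Msx2 at -2.32, Hoxc13 at -1.96 and Dlx3 at -1.70. Among these, Foxn1 is also known for directing pigment transfer to the hair. The others on the list, Gata3 and Shh, did not pass the threshold (limma adjusted p = 0.483 and 0.0988). Gata3 was at -0.13 with groups that overlapped, and Shh at 0.32 (interval 0.02 to 0.62) with groups that did not. The part of the follicle's change in the fall of the pigment genes was not tested.

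Most of the tested macrophage genes went the other way from Gpnmb. Of 19 tested of 22 listed, 15 rose and 0 fell at an adjusted p under 0.05 in limma, 23.4% of all tested genes being called higher; 0 were lower at an unadjusted p under 0.05 in limma, and 1 was called lower under 5 alternative settings. Their mean level per array was 8.48 and 8.44 in wild type and 9.38 and 9.59 in K5-IKKbeta skin, with Mpeg1 at 1.86, Aif1 at 1.82, Ctss at 1.77 and Tyrobp at 1.72 (log2 fold change). Acp5, Msr1, Lgmn and Trem2 did not pass the threshold, at 0.65, 0.34, 0.32 and -0.22. No listed macrophage gene that was tested lay below the floor in both wild type pools. The wild type mean of Aif1 (5.59) did lie below the filter value for dim probe sets, and its K5-IKKbeta mean was 7.41. Gpnmb fell in the same skin, and which cells made its RNA was not analysed here.

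Schwann cells share a neural crest origin with melanocytes. Of 11 tested Schwann and nerve genes 4 rose (36.4%) and 1 fell (9.09%), against 23.4% and 10.6% of all tested genes, with a median of 0.28 and a mean level per array of 8.48 and 8.50 in wild type and 8.91 and 8.75 in K5-IKKbeta skin. Pmp22 and Mbp, of myelin, had log2 fold changes of 1.19 and 1.18, Ncam1 0.84 and Cdh19 0.82. The call of Cdh19 was lost without either wild type pool (log2 fold change 0.77 without pool 1 and 0.86 without pool 2). The wild type mean of Cdh19 (6.17) lay below the filter value for dim probe sets, and its K5-IKKbeta mean was 6.99. Egr2, a factor of myelinating cells also present in follicles, fell by 0.58 on the log2 scale, a call lost without wild type pool 2 (limma adjusted p = 0.0525).

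Epidermal and dermal markers were counted in the same way. Of 12 keratinocyte genes 7 rose (58.3%) and 2 fell (16.7%), against 23.4% and 10.6% of all tested genes (median 0.51), with Krt2 at least 20.9-fold higher, Krt1 at 1.66, and the cornification genes Ivl and Flg at -1.74 and -1.07. Without either wild type pool 3 rose. Of 6 fibroblast genes 3 rose, against the same 23.4% (median 0.48), namely Pdgfra at 1.30, Lum at 1.09 and Dcn at 0.70, the last lost without wild type pool 2 (limma adjusted p = 0.0587). Krt2 was the 1 keratinocyte gene below the floor in both wild type pools.

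**Figure D4:**
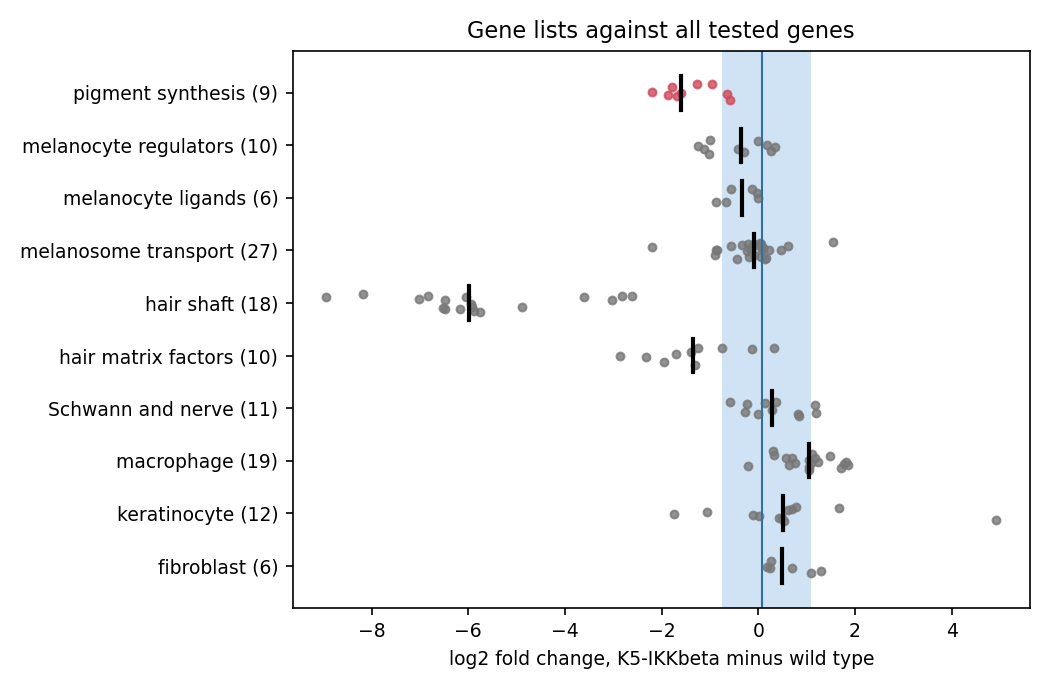
Log2 fold change (K5-IKKbeta minus wild type) of each tested gene of 10 lists, with the number tested in brackets and the list's median as a black bar; the blue line is the median of all tested genes (0.09) and the band spans their 5th to 95th percentile (-0.72 to 1.08). The medians of pigment synthesis (-1.61), hair shaft (-5.99) and hair matrix (-1.35) genes lie below the band.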

How the data were processed

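The deposited values are log2 RMA expression values of 4 arrays, per the submitters' processing notes, which name RMA but no version or log base. The log2 scale was read from the range of the values. Total RNA (5 micrograms per array) was extracted with Trizol and columns, per the labels' protocols. The authors' software and probe annotation: not given in the sources used here. Precision is limited by the number of arrays.

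Names came from the platform annotation (34958 of 45101 with 1 symbol, 932 with several and 9211 with none) and updated by gene identifier through the RefSeq table of GRCm38.p6 (34754 matched, 0 symbols changed). Per gene, the probe set with the highest mean was kept if above the 40th percentile of all means (6.33), leaving 13074 of 18194 genes. Genotypes were compared with limma 3.58.1 in R 4.3.3 (lmFit, eBayes, two-sided, genotype as the term, 4.00 prior and 2 residual degrees of freedom) with Benjamini-Hochberg adjustment over all genes, or over all probe sets in a second fit, at 0.05. The fit was tested on simulated data. Folds are 2 raised to the size of the log2 fold change; a fold whose dimmer group had both pools under the array's 25th percentile is a bound against that percentile.

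The members, gene lists, naming rule and tests were chosen with earlier results of these data known. All members were named; from each list up to 4 called genes with the largest change, and those in the minority direction where 3 or fewer. Trpm1, Myo5a, Sox10, Pax3, Kit, members not past the threshold and the skin markers were named after their values were seen. Alternatives were other filters, summaries, normalizations and moderation, the replicate number as a block, and each array left out. Promoter sequences are from RefSeq, GRCm38.p6.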

Additional observations from a re-analysis of the deposited data

How the results depend on the processing

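The fall of the 9 genes kept its direction under all 14 alternatives where the gene was tested. The number past the threshold was 8 at a filter at the 60th percentile, where Gpr143 was not tested, and 8 to 9 with an array left out. With no moderation across genes (ordinary least squares on 2 residual degrees of freedom), 134 genes were called in place of 4436. The counts were then 0 for the genes, 0 for the probe sets and 6 in place of 72 for the genes of the other lists together. At an unadjusted p under 0.05 from ordinary least squares there were 9 of 9 genes and 12 of 15 probe sets. The share of all genes at that limit is not given here. With moderation in limma, 5775 of all 13074 genes had an unadjusted p under 0.05. Member probe sets called numbered 9 to 15 with an array left out. With the replicate number as a block (replicate block) 9 genes and 15 probe sets passed and 4553 genes in all; same-numbered pools deviated with a correlation of 0.25 across genes, which with 2 pairs does not show pairing. The median of the 9 genes was -1.27 with the mean of all probe sets and -1.44 at the 60th percentile.

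Of the genes called, 68.9% were higher, against 59.2% after another quantile normalization, 57.9% when hair shaft and Krtap probe sets were left out of it, and 63.9% after centring. Melanosome transport genes called lower numbered 8 after either quantile normalization in place of 5, and 3 without wild type pool 2, where regulators called lower numbered 2 in place of 4 and ligands 1 in place of 2. Transport genes called higher numbered 1 in place of 3 without wild type pool 1. Genes called in all numbered 2450 and 2311 without wild type pool 1 and 2. Hair matrix genes called higher numbered 1 in place of 0 without K5-IKKbeta pool 1. Schwann and nerve genes called lower numbered 2 in place of 1 after either quantile normalization, with the mean of probe sets and with trend and robust moderation. None of the genes followed through these alternatives reversed its direction. Those followed were the members, the genes named by rule from each list, and Bloc1s3. Genes near 0 such as Sox10 and Edn3, and the other BLOC and AP-3 subunits, were not followed, so whether their signs held was not tested. Depth in the sense of counts does not apply; Gpr143 and the dim Gpnmb probe set were nearest to background.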

Other observations

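Trpm1, a cation channel of melanocytes on the list of transport genes, had probe sets that disagreed in size. Its brightest in the mean, 1437445_at, measured 8.78 and 9.13 in wild type and 8.44 and 8.35 in K5-IKKbeta skin, a log2 fold change of -0.56. Probe set 1418935_at measured 9.43 and 9.49 against 6.78 and 7.41, a log2 fold change of -2.37 (limma adjusted p = 0.000891 over all probe sets). The other 2 gave -0.82 and -0.85. Both groups were apart without overlap in each of these probe sets.

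Myo5a, the myosin motor that carries melanosomes, differed more between the K5-IKKbeta pools than between genotypes in its brightest probe set. It measured 9.18 and 9.04 in wild type pools, 7.66 in K5-IKKbeta pool 1 and 8.78 in pool 2 (log2 fold change -0.89, limma adjusted p = 0.0935 over all genes). Its other probe sets showed the same order, with 7.29 and 8.28 for 1419754_at and 7.69 and 8.63 for 1431320_a_at in K5-IKKbeta pools 1 and 2. Myo5a is the gene of the dilute coat colour allele of DBA2 mice, and the alleles in these pools were not tested.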
